A study of Rattus norvegicus with 12 samples.

Results

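RNA-seq of infarcted left ventricle (LV) from rats treated with an illuminated algal patch was set against the uninjured LV of sham-operated rats, to describe which gene programmes stayed away from the uninjured level 1 day after treatment and which lay at it. The comparison took 8 of the 12 rats sequenced, 4 in the iCarP+/Light+ group and 4 in the Sham group, and covered the 22250 protein-coding genes among the 34599 genes of the count table. All were male Sprague Dawley rats, anesthetized with chloral hydrate and ventilated. Sham rats had the chest opened and no artery tied. In iCarP+/Light+ rats a ligature closed the LAD (left anterior descending) coronary artery, Chlorella, a unicellular green alga, was injected into the infarcted LV, and iCarP, an optical fiber in a biodegradable polyester (PMCL) patch, was attached to the epicardium with the adhesive CCS@gel and lit. According to the labels, the infarct region was harvested 1 day after infarction and implantation. The 4 MI rats had the ligation without any of the treatment, and their values are given side by side where stated. Both comparisons share the Sham rats. The study also had rats with the patch unlit, but the 12 rats sequenced include no such rat. What the injected alga, the glued patch and its illumination each contribute therefore cannot be told apart.

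Adult ventricular muscle makes most of its ATP by burning fatty acids in densely packed mitochondria, and its transcripts are dominated by those for the contractile apparatus and the respiratory chain. After a coronary artery is closed, cardiomyocytes in its territory die within hours, resident cells release chemokines, and neutrophils enter first, followed by monocytes that become macrophages. Clearance of dead muscle precedes the deposition of collagen scar by fibroblasts.

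Between 14064414 and 16775369 reads per iCarP+/Light+ rat and between 16806502 and 17136958 per Sham rat were counted on genes. Levels are given as CPM, the counts of a gene divided by the size of the library after scaling by TMM, a method of edgeR that corrects for differences in library composition, and comparisons between genes use RPKM, in which the CPM is also divided by the length of the gene. The composition of the libraries differed with the group. Mitochondrially encoded genes took 22.8 to 28.9% of counts in Sham rats and 14.2, 12.1, 7.89 and 7.14% in iCarP+/Light+ rats 1, 2, 4 and 5, and 166 to 251 genes made up 50% of the counts in Sham rats against 542 to 619 in iCarP+/Light+ rats. The labels name no batch, and p-values measure the spread between these rats. In whole tissue, fewer cells of a type and less RNA per cell cannot be told apart.

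Most of the transcriptome of the treated infarct lay away from Sham. Of the 13660 protein-coding genes with enough counts to be tested, 9155 (67.0%) differed between iCarP+/Light+ and Sham rats at an adjusted p below 0.05 in edgeR's quasi-likelihood test, with Benjamini-Hochberg adjustment over 15101 genes of all types. All adjusted p-values are from this test, signed values given for single genes are log2 fold changes of iCarP+/Light+ against Sham, and intervals are their 95% intervals. The direction was balanced, with 4586 genes higher (33.6%) and 4569 lower (33.4%). A rise of 2-fold or more was called in 2508 genes (18.4%) and a fall of that size in 2830 (20.7%). At the far ends the balance was lost, since by fitted values 165 genes rose by 64-fold or more and 14 fell by as much. Where Sham had 0 counts the data give only a lower bound on the rise. Ereg, fitted at 9.33 on the log2 scale, is bounded at 23.0-fold or more, so the count of 165 is uncertain. The groups did not overlap in CPM for 8769 genes (64.2%). Scaling by total counts in place of TMM moved the median of all genes from 0.01 to 0.32 on the log2 scale and the share of higher genes among those called from 50.1% to 64.7%, with 6087 higher and 3317 lower.

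A gene was taken as lying at Sham level when the 95% interval of its fold change stayed within 1.5-fold in both directions, a log2 value of 0.58. This held for 2207 protein-coding genes (16.2%), of which 284 also passed the test with a difference of less than that size. With libraries scaled by total counts 1722 genes lay within the margin, and only 894 of them were among the 2207. Sham level is used below for genes within the margin under TMM scaling, and of 53 genes named as lying at it 26 were called higher with total counts. Another 2582 genes were neither called nor within the margin. Their median level was 4.44 CPM, against 36.8 CPM for the genes at Sham level, 30.4 CPM for those that were higher and 25.5 CPM for those that were lower. In MI rats set against the same Sham rats, 4195 genes were higher (30.7%), 4651 lower (34.0%) and 2330 within the margin (17.1%). The genes called higher in iCarP+/Light+ rats had a median log2 fold change of 1.11, and the same genes had a median of 0.92 in MI rats. For the genes called lower the medians were -1.27 and -1.19, and for the genes at Sham level they were 0.01 in both.

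**Figure D1:**
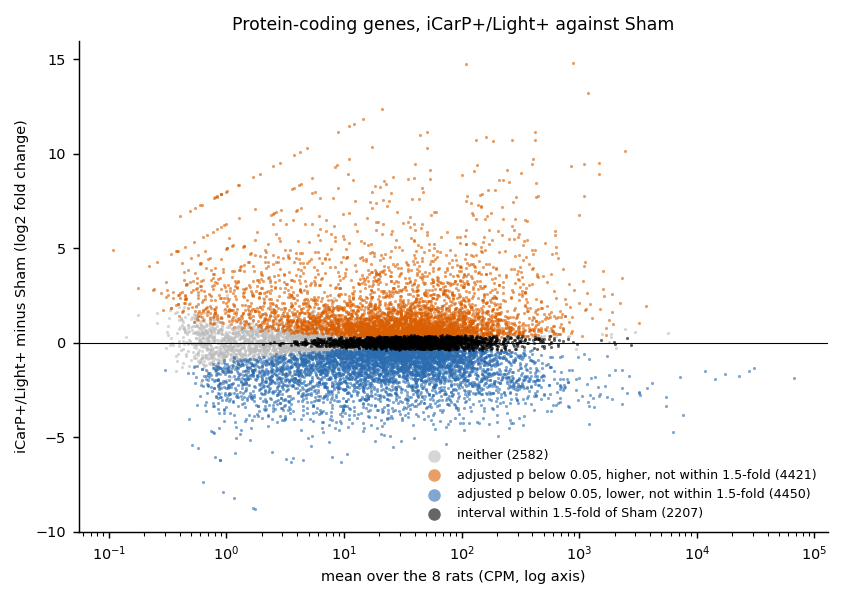
Log2 fold change of iCarP+/Light+ against Sham rats (vertical axis) for each of the 13660 protein-coding genes tested, against its mean level in CPM on a log axis (horizontal axis), with points coloured by whether the gene was higher, lower, within 1.5-fold of Sham or neither. The 4586 higher and 4569 lower genes spread to both sides, the rises reach further than the falls, and genes without a count in any Sham rat are drawn at their fitted values.

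The furthest rises included ligands that call neutrophils and genes that neutrophils express. Cxcl3, a CXC chemokine that draws neutrophils and is listed as ENSRNOG00000028043 on chromosome 14 from 18820168 to 18839595, was measured at 0.145, 0, 0.0759 and 0 CPM in Sham rats 1, 2, 3 and 5 and at 1435.9, 1424.2, 1765.4 and 2502.0 CPM in iCarP+/Light+ rats 1, 2, 4 and 5. The order of the rats is the same in all lists of values. Every treated rat was far above every Sham rat, and the Sham value rests on 3 counts in all. The mean CPM of the treated rats was 32802.3 times the CPM given by the 3 counts over the pooled Sham libraries, with a counting interval of 11224.3 to 159061.4. Cxcl2, of the same family and on chromosome 14 from 18731378 to 18733391, went from 0.145, 0.0683, 0.38 and 0.369 CPM to 1806.0, 1710.7, 2479.6 and 3440.6 CPM, or 13.24 as log2 fold change (standard error 0.799, adjusted p = 1.45e-08). Csf3, the gene of granulocyte colony-stimulating factor, on chromosome 10 from 86616785 to 86619157, was at 0 in all 4 Sham rats and at 189.2, 211.2, 242.0 and 224.8 CPM in the treated rats. Against a floor of 3 counts per Sham library it was at least 996.2-fold higher, and the 4 treated rats lay within a narrow band. Il1r2, a decoy receptor for interleukin-1, was at 0.0759 to 0.546 CPM in Sham and 492.0 to 1222.0 CPM in treated rats (log2 fold change 11.16, adjusted p = 9.82e-09).

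Further genes without a count in any Sham rat were Prok2, a secreted peptide made by neutrophils, at 10.6 to 76.2 CPM in treated rats and at least 192.0-fold higher, Stfa2l1, a cystatin of the stefin A family, at least 133.1-fold higher (at least 75.7-fold without treated rat 4, which was above the other 3), and Serpinb2, an inhibitor of plasminogen activators, at least 102.0-fold higher. Tcp11 was at least 81.2-fold higher. Sirpd was at least 110.9-fold higher by its group mean, but its values were 79.6, 4.35, 5.35 and 7.24 CPM, so treated rat 1 was far above the other 3, and without it the gene was at least 26.0-fold higher. AABR07034362.2, which has no gene name, had 2 counts pooled over the Sham libraries, against which the treated mean was 2822.3 times as high (counting interval 781.3 to 23304.6). In all, 16 genes that were called higher at a mean of 1 CPM or more had 0 counts in Sham, and 36 had 1 to 3 counts.

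The furthest falls included genes of muscle and of metabolism. Ky, which is needed to keep muscle intact, was at 54.6, 52.8, 55.5 and 74.4 CPM in Sham rats and at 1.25, 3.26, 0.61 and 1.27 CPM in treated rats, or -5.19 as log2 fold change (standard error 0.516, adjusted p = 3.04e-06). Asb10, a subunit of ubiquitin ligases, was at 30.5 to 43 CPM in Sham and 0.211 to 1.93 CPM in treated rats (-5.19, adjusted p = 5.44e-06). Dhrs7c, a dehydrogenase of the sarcoplasmic reticulum, was at 110.9 to 159.7 CPM and 1.63 to 5.76 CPM (-5.38, adjusted p = 1.59e-07). Rbfox1, a splicing factor of muscle and brain, changed by -5.03 (adjusted p = 6.07e-07). Papln, an extracellular matrix protein, had a mean of 50.8 ± 4.53 CPM (SD, n = 4) among Sham and 1.1 ± 0.367 CPM (SD, n = 4) in treated rats, without overlap. Adh1, an alcohol dehydrogenase, and Ros1, a receptor tyrosine kinase, had the lowest log2 fold changes among genes of at least 5 CPM without overlap, -6.32 and -6.06 (adjusted p = 9.67e-07 and 1.15e-06), from Sham levels of 7.59 to 24 CPM and 12.8 to 21.2 CPM. AABR07046778.1 and LOC100911951, both without a gene name, changed by -5.45 and -5.27 (adjusted p of 0.000815 and 1.9e-05).

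Single Sham rats set the size of some of these falls. For AABR07046778.1 Sham rat 1 was at 31.7 CPM and the other Sham rats at 1.11 to 6.83 CPM, and without it the log2 fold change was -3.73 (adjusted p = 0.00192). Echs1, the enoyl-CoA hydratase of mitochondrial fatty acid oxidation, was at 2.53, 2.05, 75.8 and 3.17 CPM in Sham rats and at 0.563, 0.302, 0.135 and 0.352 CPM in treated rats. Sham rat 3 was far above the other Sham rats. The log2 fold change of -5.90 (adjusted p = 0.00853) became -2.90 without that rat (adjusted p = 0.0667), and every treated rat was below every Sham rat in both cases.

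**Figure D2:**
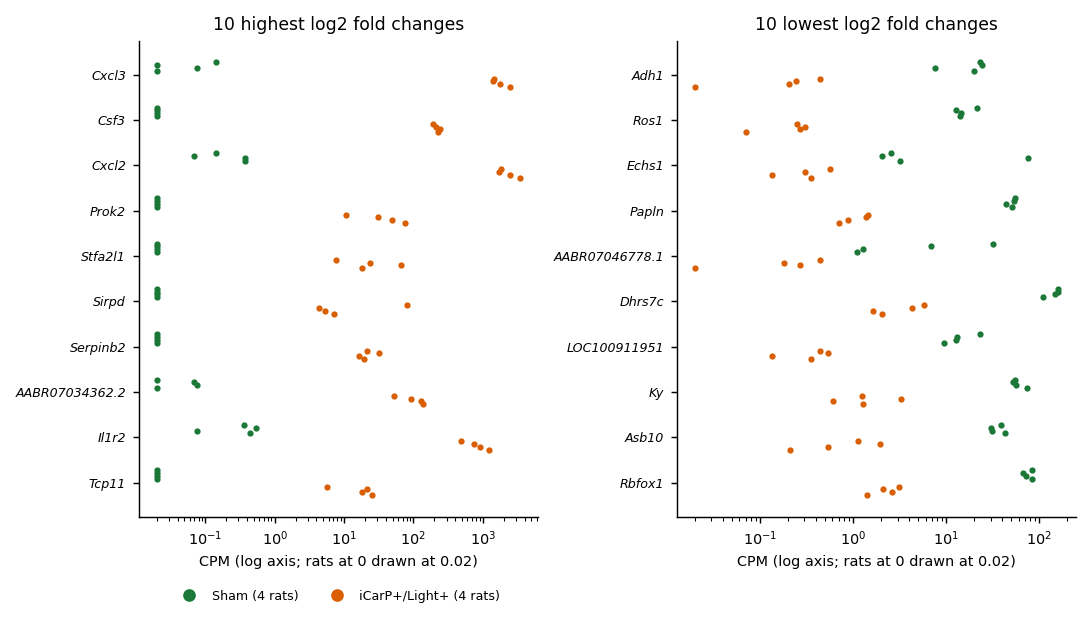
CPM on a log axis of the 10 genes with the highest and the 10 with the lowest log2 fold change among genes without overlap between the groups, with 1 point per rat. Cxcl3, Cxcl2, Csf3 and Il1r2 reach 189.2 CPM or more in each of the 4 iCarP+/Light+ rats from 0.546 CPM or less in the 4 Sham rats, and Echs1 in Sham rat 3 stands at 75.8 CPM above the other Sham rats.

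Genes were grouped into 46 lists of programmes and 14 lists of cell type markers, in which 1389 of 1432 symbols were found in the table. A list was called apart from Sham when 50% or more of its tested members were called in 1 direction and its median log2 fold change was 1 or more in size, and at Sham level when 50% or more of its members had an interval within 1.5-fold. Placing genes without a Sham count at their bound left the list medians as given. Counts of list members are to be read beside all genes tested, of which 33.6% were higher, 33.4% lower and 16.2% at Sham level. Of the 60 lists, 32 were apart from Sham, 27 lay in between and 1, the proteasome, was at Sham level.

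**Figure D3:**
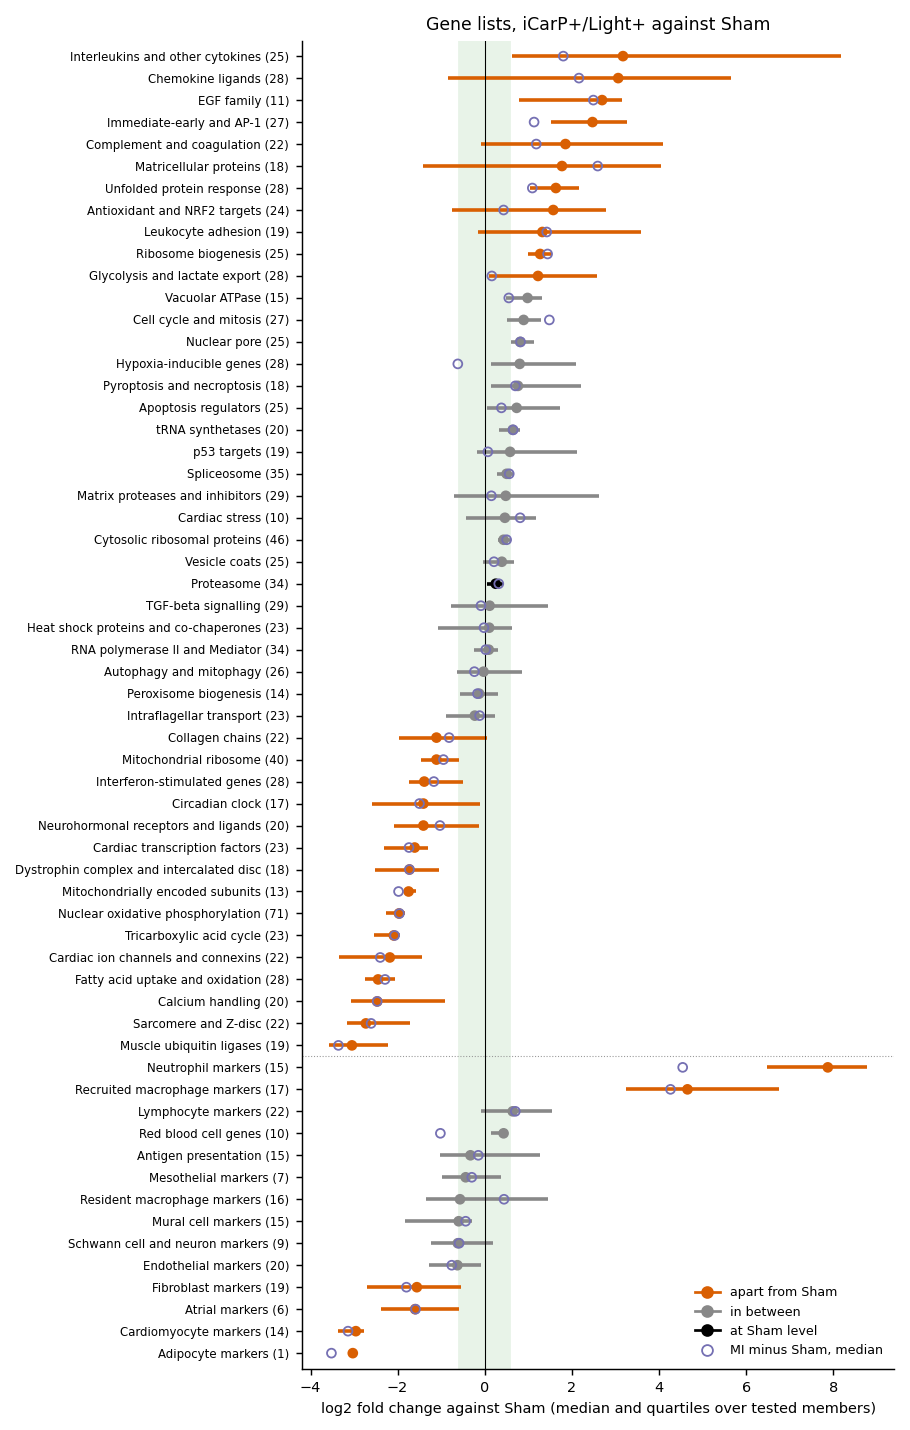
Median log2 fold change of each of the 60 gene lists against Sham, for iCarP+/Light+ rats (filled points, coloured by the state of the list) and for MI rats (open circles), with lines from the lower to the upper quartile of members in iCarP+/Light+ rats, a shaded band at 1.5-fold and the number of tested members in brackets. Neutrophil markers have the highest median (7.87) and muscle ubiquitin ligases the lowest (-3.05).

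The contractile and excitation genes of the cardiomyocyte were low after treatment, along with 13 of 14 cardiomyocyte markers. Of 22 sarcomere and Z-disc genes tested, 18 fell and 2 rose, with a median log2 fold change of -2.73, beside 33.4% of all genes that fell and 33.6% that rose. These genes together took 4.6, 4.98, 4.41 and 4.41% of the counts in the 4 Sham rats and 1.35, 1.18, 0.769 and 0.604% in the 4 treated rats. The shares did not overlap, and treated rats 1 and 2 kept more than rats 4 and 5. Myh6, the fast adult myosin heavy chain, was at 12394.8, 13200.2, 11137.2 and 11318.7 CPM in Sham rats and 543.8, 688.4, 266.2 and 321.3 CPM in treated rats (log2 fold change -4.72, standard error 0.294, adjusted p = 1.35e-07). Actc1, cardiac actin, was the second nuclear gene by RPKM in Sham rats, mitochondrially encoded genes left out of all ranks, at 9628.2 RPKM and the rank fell to 105 in treated rats at 678.5 RPKM. Myl2, the regulatory light chain, changed by -3.26, Mybpc3, which tunes cross-bridges, by -3.33 and Actn2, the Z-disc actinin, by -2.81 (adjusted p of 1.3e-05, 1.36e-06 and 1.73e-06). The members that rose were Csrp3, a Z-disc sensor of stretch, at 0.68 (adjusted p = 0.0228, and between 0.0558 and 0.0756 without treated rat 1 or 2 or Sham rat 3), and Xirp2, an actin-binding protein of intercalated discs, at 1.84 (adjusted p = 1.49e-05). Des, which encodes the intermediate filament desmin, was the one member at Sham level, at 1967.1, 1990.2, 1984.1 and 2355.1 CPM in Sham and 2166.6, 2485.5, 1639.3 and 1624.8 CPM in treated rats, with an interval of -0.40 to 0.27 on the log2 scale. Myh7, the slow fetal myosin, had a log2 fold change of 0.61 that did not pass the test (adjusted p = 0.122) except without treated rat 5 (0.82, adjusted p = 0.0443) or with total counts (0.93, adjusted p = 0.0257).

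Calcium handling followed, with 15 of 20 members lower, 1 higher and 2 at Sham level (median -2.47). Atp2a2, the pump that refills the sarcoplasmic reticulum, went from 10560.2, 9835.1, 9929.0 and 9747.5 CPM to 1283.2, 1223.6, 737.5 and 670.8 CPM, a change of -3.36 (adjusted p = 1.91e-07). All 4 treated rats were below all 4 Sham rats. Its inhibitor Pln changed by -3.27, the release channel Ryr2 by -2.94 and the luminal calcium binder Casq2 by -2.79 (adjusted p of 0.000117, 7.65e-05 and 4.29e-06). Stim1, the sensor of store-operated calcium entry, was within the margin (interval -0.38 to 0.12). Sri, a calcium-binding protein made in many cells, was the member that rose (1.19, adjusted p = 9.04e-06).

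Of 22 ion channel and connexin genes, 19 fell and 1 rose (median -2.18). Hcn2, a pacemaker channel, was at 176.8, 176.9, 200.2 and 254.9 CPM in Sham and 11, 10.2, 7.52 and 4.01 CPM in treated rats and fell most (-4.62, adjusted p = 9.19e-08), followed by the sodium channel subunit Scn4b at -4.30 and the transient outward potassium channel Kcnd3 at -3.66 (adjusted p of 7.49e-06 and 3.54e-06). Kcnj2, an inward rectifier that many cells express, including macrophages, rose by 1.71 (adjusted p = 0.00141). Of 18 genes of the dystrophin complex and the intercalated disc, 17 fell (median -1.73). They included Dsp, desmoplakin, at -2.96, Sspn, sarcospan, at -3.78 and Dmd, dystrophin, at -1.80 (adjusted p of 2.13e-06, 1.7e-06 and 1.41e-05).

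Cardiac transcription factors were lower in 20 of 23 cases (median -1.61). Ppargc1a, the coactivator that drives mitochondrial gene expression, had the largest change, from 26.8, 22.3, 26 and 21.4 CPM to 3.94, 4.41, 2.3 and 1.13 CPM (log2 fold change -3.02, adjusted p = 2.51e-05). Its partners Ppara and Esrrg, nuclear receptors of fatty acid use, changed by -2.64 and -2.62 (adjusted p of 3.39e-05 and 4.95e-06), whereas Esrra, a related receptor with the highest CPM of the list, had a log2 fold change of -0.33 (adjusted p = 0.0734), which passed the test without Sham rat 3 (-0.42, adjusted p = 0.031). Srf, which controls actin genes in many cell types, was at Sham level (interval -0.16 to 0.27). Of 19 genes in the list of muscle ubiquitin ligases, which also held Ky, 18 fell and none rose, with a median of -3.05. Trim63 and Fbxo32, the ligases of muscle atrophy, changed by -2.85 and -2.33 (adjusted p of 6.19e-07 and 0.000202), and Klhl31, an adaptor of such ligases, by -3.20 (adjusted p = 2.06e-06).

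The cardiac stress list was split. Nppa, the atrial natriuretic peptide, rose from 116.1, 91.1, 114.2 and 94.3 CPM to 1006.9, 1040.0, 934.7 and 864.0 CPM (log2 fold change 3.21, adjusted p = 4.53e-07), and Nppb, the B-type peptide, rose by 1.31 (adjusted p = 0.0019). Gdf15, a stress cytokine, had the largest rise (4.56, adjusted p = 4.01e-07). Acta1, skeletal actin, fell by 1.43 on the log2 scale (adjusted p = 0.000339), and Xirp1, a relative of Xirp2, was at Sham level (interval -0.49 to 0.54). Among neurohormonal genes, 14 of 20 fell and 4 rose. Those that fell included Adrb1, the main beta-adrenergic receptor of the heart, at -2.06, Chrm2, its muscarinic counterpart, at -2.08 and Corin, the protease that activates natriuretic peptides, at -2.92 (adjusted p of 0.000272, 0.000589 and 0.000634). Edn1, the vasoconstrictor endothelin-1, was at 1.33 to 2.46 CPM in Sham and 22.7 to 66.6 CPM in treated rats (4.37, adjusted p = 3.18e-07). The receptor kinases Grk2 and Grk5, which desensitize adrenergic receptors, rose by 0.79 and 1.81 (adjusted p of 4.03e-05 and 1.74e-06).

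Mitochondrial energy genes fell nearly without exception. Of 71 nuclear genes of the respiratory chain and ATP synthase, 70 fell and none rose, with a median log2 fold change of -1.97 and an interquartile range of -2.26 to -1.84. They took 3.78, 3.97, 3.32 and 3.45% of counts in Sham rats and 1.37, 1.11, 0.946 and 0.758% in treated rats, which did not overlap. Atp5f1b, the catalytic subunit of ATP synthase, was at 7465.8, 6807.1, 6414.2 and 6693.5 CPM in Sham and 1891.8, 1736.5, 1410.6 and 1166.6 CPM in treated rats (-2.14, standard error 0.164, adjusted p = 2.66e-07). Ndufa1, a small subunit of complex I, had the largest change, -4.64 (adjusted p = 0.0326), but its Sham values were 1.16, 0.887, 30.4 and 0.59 CPM, and without Sham rat 3 the change was -1.43 (adjusted p = 0.432). Leaving out treated rat 2, 4 or 5 also ended its call (adjusted p between 0.0683 and 0.0758). All 13 mitochondrially encoded subunits fell (median -1.75). COX1, the core of cytochrome oxidase, was at 106097.2, 87997.4, 120527.7 and 103875.7 CPM in Sham rats and 40542.7, 34810.6, 20843.5 and 19419.5 CPM in treated rats (adjusted p = 3.5e-05), with treated rats 1 and 2 above rats 4 and 5. ND4, a complex I subunit, had the largest change of these (-2.37, adjusted p = 1.76e-06).

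All 23 genes of the tricarboxylic acid cycle and its supply fell (median -2.09). Mdh1, the cytosolic malate dehydrogenase of the malate shuttle, changed by -3.04 (adjusted p = 5.01e-07). Of 28 genes of fatty acid uptake and oxidation, 26 fell (median -2.45). Fabp3, the fatty acid carrier of heart muscle, went from 2687.1, 2487.5, 2166.0 and 1944.1 CPM to 209.4, 138.6, 74.7 and 49.7 CPM (-4.30, adjusted p = 6.83e-06), a drop in rank by RPKM among nuclear genes from 10 to 507. Acsl1, which activates fatty acids, changed by -3.62, Cpt1b, the gate to the mitochondrion, by -3.0 and Lpl, which frees fatty acids from blood lipids, by -2.83 (adjusted p of 1.04e-07, 5.62e-06 and 1.38e-05). Of 40 mitochondrial ribosomal protein genes, 35 were lower and 2 at Sham level, with a median of -1.11. Mrpl12 and Mrpl16, both of the large subunit, changed by -1.58 and -1.86 (adjusted p of 5.27e-07 and 8.17e-08), while Mrps10 of the small subunit had an interval of -0.44 to 0.30. The median was -0.94 without treated rat 5 and -0.78 with total counts, and each took the list below the size set for lists apart from Sham. With total counts 28 members were lower and 10 within the margin.

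Of 28 genes of glycolysis and lactate export, 18 rose, 6 fell and 3 were at Sham level (median 1.22, against 0.16 in MI rats). Slc16a3, the lactate exporter of glycolytic cells, rose from 3.83, 4.23, 3.11 and 4.86 CPM to 478.6, 1017.8, 793.5 and 1243.2 CPM (7.78, standard error 0.347, adjusted p = 2.32e-08). The groups were separated by more than the whole range of Sham. The glucose transporters Slc2a1 and Slc2a3 rose by 5.71 and 5.61, the leukocyte hexokinase Hk3 by 6.91 and the pyruvate kinase Pkm by 2.12 (adjusted p of 1.73e-07, 0.00207, 9.64e-09 and 3.21e-07). Those that fell were Pfkm at -3.86, Pgam2 at -4.37, Eno3 at -3.46, Ldhb at -2.87 and Pfkfb2 at -2.04, with the lactate carrier Slc16a1 at -0.47 (all with an adjusted p below 0.05, but for Slc16a1 0.336 with total counts). Other genes of the same enzymes rose, with Pfkl at 2.34, Pgam1 at 2.07, Eno1 at 1.80 and Ldha at 0.99 (adjusted p of 8.89e-06, 8.56e-07, 3.75e-06 and 0.000551). Gapdh, the shared glyceraldehyde dehydrogenase, was at Sham level, at 2132.3, 2171.4, 2307.7 and 2699.3 CPM in Sham and 2175.3, 2989.2, 2550.1 and 3202.0 CPM in treated rats (interval -0.11 to 0.57), and so were the hexokinase Hk1 (interval -0.09 to 0.41) and Aldoa, the muscle aldolase (interval -0.50 to 0.28). With total counts Gapdh and Hk1 were called higher (0.54 and 0.47, adjusted p of 0.0037 and 0.00366).

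Of 28 hypoxia-inducible genes, 16 rose and 4 fell, with a median of 0.80 in treated rats and -0.62 in MI rats. Angptl4, a secreted inhibitor of lipoprotein lipase, rose most, from 1.37, 8.05, 1.44 and 2.65 CPM to 163.4, 187.3, 209.4 and 294.6 CPM (5.96, adjusted p = 3.96e-07). Hilpda, which blocks lipid breakdown, rose by 5.88, Ero1a, an oxidase of the endoplasmic reticulum, by 4.92 and Ndrg1 by 3.92 (adjusted p of 1.9e-07, 1.62e-07 and 6.03e-08). Vegfa, the main angiogenic factor, was at 296.8, 306.1, 265.7 and 245.6 CPM in Sham and 219.9, 405.6, 347.8 and 374.7 CPM in treated rats, a difference of 0.27 that did not pass the test (adjusted p = 0.449). Egln3, an oxygen-sensing hydroxylase with the highest CPM of the list, rose by 0.91 (adjusted p = 0.0374), and leaving out any of the Sham rats or treated rats 2, 4 or 5 ended the call (adjusted p between 0.0577 and 0.0902). Pdk1, a kinase that inhibits pyruvate dehydrogenase, was lower (-1.17, adjusted p = 0.000271). Because Angptl4 led this list, its promoter is shown, the 250 bases before its start in RefSeq's GRCr8 assembly at chr7:15258682-15258931 on the minus strand. Capitals mark the only match to the core of the hypoxia response element (ACGTG or GCGTG, searched on both strands), which lies on the opposite strand 230 bases before the start. That core was present in 20 of the 26 promoters found for the 28 genes (76.9%) and in 41.9% of 18999 RefSeq protein-coding promoters of the same length, and a match describes letters only. The share was also high in lists that have no hypoxia in their definition, such as the unfolded protein response (91.3%), the vacuolar ATPase (91.7%) and ribosome biogenesis (81.8%), so nothing is read from it about the hypoxia list.
Angptl4: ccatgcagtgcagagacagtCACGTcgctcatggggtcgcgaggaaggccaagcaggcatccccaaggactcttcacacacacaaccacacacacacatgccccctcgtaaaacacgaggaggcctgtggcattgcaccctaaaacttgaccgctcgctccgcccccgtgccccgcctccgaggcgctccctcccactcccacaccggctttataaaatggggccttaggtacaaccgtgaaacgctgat

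More chemokine and cytokine genes rose than fell, though the filter for counts favoured rises, and markers of neutrophils were high in the same rats. Of 28 chemokine ligand genes, 17 rose and 7 fell (median 3.06, 2.16 in MI rats), beside Cxcl2 and Cxcl3 above. Several members had almost no counts in Sham and passed the filter through the infarct groups, and among the 16 with 10 or more counts in every rat 8 rose and 5 fell, with a median of 0.86. Among ligands of neutrophils Cxcl1 was at 1.73, 1.3, 1.52 and 0.59 CPM in Sham and 220.3, 224.4, 285.9 and 420.5 CPM in treated rats (7.80, adjusted p = 9.64e-09), and Cxcl6 rose by 8.31 (adjusted p = 1.42e-07). Among ligands of monocytes Ccl2 went from 7.88, 7.99, 8.27 and 8.85 CPM to 615.1, 674.1, 684.1 and 879.0 CPM (6.43, adjusted p = 9.64e-09) and Ccl3 rose by 9.46 (adjusted p = 2.3e-08). No treated rat overlapped a Sham rat in any of these. Among the 7 ligands that fell, Cxcl9, an interferon-induced attractant of T cells, changed by -2.60, Ccl19, which guides cells to lymph nodes, by -2.18 and Cxcl12, a stromal ligand, by -1.54 (adjusted p of 0.000331, 0.000493 and 0.000147).

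The promoters of Cxcl2 and Cxcl1 are shown because these genes of neutrophil attractants lie close together on chromosome 14 and both rose, a choice made after their values were seen. Each is the 250 bases before the start in GRCr8, at chr14:17467256-17467505 for Cxcl2 and chr14:17479322-17479571 for Cxcl1, both on the minus strand. Capitals mark matches to the kappaB motif, which NF-kappaB binds, with a pair of overlapping matches 74 and 73 bases before the start in Cxcl2 and 84 and 83 bases before it in Cxcl1. Searched on both strands, the motif was present in 6.93% of all 18999 promoters.
Cxcl2: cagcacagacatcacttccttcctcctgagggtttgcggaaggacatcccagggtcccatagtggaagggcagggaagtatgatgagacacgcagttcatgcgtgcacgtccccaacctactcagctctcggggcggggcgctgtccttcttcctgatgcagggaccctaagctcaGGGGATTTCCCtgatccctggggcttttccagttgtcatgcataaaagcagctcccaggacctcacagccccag
Cxcl1: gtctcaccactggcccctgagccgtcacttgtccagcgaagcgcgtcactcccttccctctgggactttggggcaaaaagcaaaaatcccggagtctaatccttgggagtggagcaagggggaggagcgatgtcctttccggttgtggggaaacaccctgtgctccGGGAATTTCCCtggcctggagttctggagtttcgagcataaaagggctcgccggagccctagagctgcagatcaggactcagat

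Of 25 interleukin and cytokine genes, 18 rose and 5 fell (median 3.17, 1.80 in MI rats). The same filter applies here, and among the 10 with 10 or more counts in every rat 6 rose and 4 fell, with a median of 0.88. Il1b, a central inflammatory cytokine, went from 1.95, 1.91, 2.58 and 3.98 CPM to 1131.9, 1374.9, 1825.7 and 2430.1 CPM (9.34, adjusted p = 9.64e-09), and Il1rn, its natural antagonist, from 2.82, 3.55, 3.04 and 6.34 CPM to 1785.2, 2727.4, 3505.0 and 3704.3 CPM (9.54, adjusted p = 1.17e-08). No treated rat came near a Sham rat in either gene. Il6, a driver of the acute phase, was at 93.4, 119.8, 85.4 and 110.4 CPM in treated rats against 0.289, 0, 0 and 0 CPM in Sham rats (adjusted p = 1.58e-07), and Il10, which restrains inflammation, at 21.3 to 83.6 CPM against 0 to 0.221 CPM (adjusted p = 2.2e-07). Tnf had 2 counts over the Sham libraries and 0.786 to 1.9 CPM in treated rats, a ratio of 35.1 (counting interval 9.72 to 290.1, adjusted p = 0.000138), and Osm, a cytokine of the interleukin-6 family, rose by 7.63 (adjusted p = 3.97e-08). Il15 and Il34, which sustain lymphocytes and resident macrophages, changed by -2.23 and -2.03, and Tnfsf10, a death ligand, by -4.23 (adjusted p of 2.78e-05, 0.00295 and 1.02e-05).

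Of 27 immediate-early genes, 24 rose and 1 fell (median 2.47). Junb, a subunit of AP-1, was at 57.3, 39.1, 28.4 and 48.6 CPM in Sham and 710.7, 1029.4, 1284.4 and 1486.1 CPM in treated rats (4.70, adjusted p = 3.96e-08). Fos, its partner, rose by 3.28, Egr1, a zinc finger factor, by 2.68 and Myc by 3.64 (adjusted p of 9.6e-06, 1.87e-06 and 1.77e-09). Klf4, a factor of endothelium and macrophages, was the member that fell (-0.88, adjusted p = 5.52e-05), and Klf2, which blood flow induces in endothelium, was at Sham level (interval -0.16 to 0.55), but was called without Sham rat 1 (0.38, adjusted p = 0.0346) and with total counts (0.50, adjusted p = 0.0137).

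Interferon-stimulated genes were mostly lower. Of 28 tested, 17 fell and 1 rose, with a median of -1.39 (-1.17 in MI rats). Mx2, an antiviral GTPase, was at 566.1, 71.4, 600.6 and 830.0 CPM in Sham and 11.7, 67.6, 10.4 and 16.6 CPM in treated rats (-4.28, adjusted p = 0.00118). Sham rat 2 was lower than the other Sham rats and still above every treated rat. Over the whole list Sham rat 2 held 0.13% of its counts, below each treated rat (0.15, 0.384, 0.242 and 0.304%) and the other Sham rats (0.461 to 0.664%). Oas1a, which senses double-stranded RNA, changed by -2.05 (adjusted p = 0.00885). Ifit3, of the same response, was the member that rose, from 227.4, 21.1, 238.6 and 333.8 CPM to 227.5, 943.0, 758.9 and 1050.9 CPM (1.86, adjusted p = 0.0327). Its call was lost without treated rat 2, 4 or 5 or without Sham rat 1 or 3 (adjusted p between 0.0529 and 0.0712). The number of genes that fell was 12 without treated rat 1, 12 without treated rat 4, 11 without Sham rat 5 and 13 with total counts, and each took the list out of those apart from Sham. Irf1, which interferon and NF-kappaB both induce, lay at Sham level (interval -0.47 to 0.47). The promoters of Ifit3 and Oas1a, chosen after their values were seen as a member that rose and one that fell, both held the interferon response element TTTCNNTTTC, found on either strand in 3.23% of all 18999 promoters. They are the 250 bases before each start in GRCr8, at chr1:241527076-241527325 and chr12:41330216-41330465, both on the plus strand, with the matches in capitals. Oas1a held a pair of overlapping matches on the opposite strand.
Ifit3: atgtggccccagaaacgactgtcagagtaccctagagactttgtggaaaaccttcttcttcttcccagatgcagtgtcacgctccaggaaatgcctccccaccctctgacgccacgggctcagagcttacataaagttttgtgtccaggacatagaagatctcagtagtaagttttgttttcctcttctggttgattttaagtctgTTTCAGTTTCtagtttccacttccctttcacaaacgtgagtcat
Oas1a: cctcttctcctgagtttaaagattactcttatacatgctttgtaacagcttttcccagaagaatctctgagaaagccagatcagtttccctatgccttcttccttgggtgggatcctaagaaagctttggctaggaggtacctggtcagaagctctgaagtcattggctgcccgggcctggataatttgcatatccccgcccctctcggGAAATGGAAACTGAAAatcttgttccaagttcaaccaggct

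Leukocyte adhesion genes rose in 12 of 19 cases, fell in 4 and lay at Sham level in 2 (median 1.32). The rises included Itgb2, the leukocyte integrin chain, at 4.59 and, on the endothelial side, Selp, P-selectin, at 6.65 and Icam1 at 2.83 (adjusted p of 1.41e-08, 9.64e-09 and 7.26e-08). Itgb1, the widespread integrin chain with the highest CPM of the list, rose by 0.49 (adjusted p = 0.00157). Vcam1, another endothelial ligand of leukocytes, was at 13.4, 10.1, 9.87 and 13.7 CPM in Sham and 13.6, 9.97, 9.62 and 10.7 CPM in treated rats, within the margin (interval -0.53 to 0.33). The junction proteins Jam2 and Jam3 changed by -1.67 and -1.25 (adjusted p of 8.54e-05 and 1.58e-06). Of 22 complement and coagulation genes, 15 rose and 4 fell (median 1.85). Plaur, the urokinase receptor, rose from 6, 6.62, 4.71 and 7.37 CPM to 235.4, 283.1, 247.4 and 441.0 CPM (5.61, adjusted p = 9.82e-09). C3, the hub of complement, rose by 5.89, whereas C1r and C1s, proteases of its classical start, changed by -1.07 and -1.23 (adjusted p of 1.95e-07, 0.000466 and 0.00496). The tissue plasminogen activator Plat and the pathway inhibitor Tfpi were at Sham level (intervals -0.24 to 0.47 and -0.49 to 0.19).

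The make-up of the tissue, read from marker genes, was that of a muscle poor in cardiomyocyte transcripts and rich in those of neutrophils and recruited macrophages. All 14 cardiomyocyte markers were detected in every rat, with 13 lower, Nppa higher and a summed level of 56076.1 to 61268.5 CPM in Sham against 3971.6 to 9507.5 CPM in treated rats. Mb, myoglobin, had the highest RPKM of the nuclear protein-coding genes in Sham rats at 10157.0 RPKM and stood at rank 31 in treated rats at 1368.0 RPKM. Of 22 neutrophil markers listed, 15 had enough counts and were higher, but most were close to 0 in Sham and passed the filter through the infarct groups, so that direction was largely fixed by the filter. The 4 with 10 or more counts in every rat were higher too (median 6.96). The 15 had a median of 7.87 (4.54 in MI rats) and a summed level of 55.2 to 90.5 CPM in Sham and 3694.3 to 10017.8 CPM in treated rats. S100a9, a subunit of the alarmin calprotectin, was at 2.31, 2.8, 4.25 and 3.02 CPM in Sham and 932.8, 2889.5, 1760.9 and 3161.2 CPM in treated rats (9.46, adjusted p = 2.3e-08), and by RPKM its rank among nuclear genes went from 7893 to 7. Csf3r, the receptor of the Csf3 product, rose by 8.44 and Cxcr2, the receptor of the Cxcl2 product, by 7.41 (adjusted p of 1.32e-08 and 6.7e-08).

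Of 17 markers of recruited macrophages, 16 rose (median 4.65). Lyz2, lysozyme of myeloid cells, went from 152.6, 208.6, 186.4 and 297.5 CPM to 3202.5, 1967.9, 3145.8 and 3539.2 CPM (3.81, adjusted p = 1.58e-07), and Clec4e, a lectin receptor for dead cells and microbes, had the largest rise (10.68, adjusted p = 1.27e-08). Gpnmb, a marker of lipid-laden macrophages, rose by 6.74 (adjusted p = 4.16e-09), while Trem2 was not called (0.36, adjusted p = 0.301). Markers of resident macrophages were split, with 6 of 16 higher and 9 lower, beside 33.6 and 33.4% of all genes. Those that fell included Gas6, a bridge to dying cells, at -2.42, Lyve1, a hyaluronan receptor, at -0.65 and the complement genes C1qa and C1qb at -1.33 and -1.03 (adjusted p of 1.61e-07, 0.0146, 0.000198 and 0.00254). Lyve1 was not called without Sham rat 3 or with total counts (-0.44 and -0.33, adjusted p of 0.0579 and 0.183). Those that rose included Vsig4, a complement receptor, at 4.71 and Mrc1, the mannose receptor, at 1.12 (adjusted p of 0.000882 and 0.00309), and Cd163, a scavenger receptor, had a log2 fold change of 0.44 (adjusted p = 0.468). Of 22 lymphocyte markers, 9 rose and 3 fell (median 0.64), beside 33.6 and 33.4% of all genes, and of the 11 with 10 or more counts in every rat 4 rose and 3 fell (median 0.39). Il7r, the interleukin-7 receptor, rose from 0.217, 0.546, 0.531 and 0.59 CPM to 7.83, 18.2, 9.62 and 24.5 CPM (4.97, adjusted p = 5.62e-07), Cd8a rose by 3.63 and Cd4, which macrophages of the rat also carry, fell by 0.97 on the log2 scale (adjusted p of 2.1e-05 and 0.000108), and Cd3e and Cd3d, chains of the T cell receptor complex, were not called (0.82 and 0.45), although Cd3e was without Sham rat 5 (1.08, adjusted p = 0.0443) and with total counts (1.14, adjusted p = 0.0214). In antigen presentation 3 of 15 genes rose and 5 fell, beside 33.6 and 33.4% of all genes, and of the 11 with 10 or more counts in every rat 1 rose and 5 fell. Cd74, the invariant chain, changed by -1.70 (adjusted p = 3.59e-05), and RT1-DMa, which loads peptides, by 3.02 (adjusted p = 3.3e-05) from a Sham level of 0.152 to 0.65 CPM.

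Endothelial markers fell in 13 of 20 cases (median -0.63), and 4 were at Sham level. Aqp1, a water channel of capillaries, went from 881.0, 1102.8, 1000 and 865.5 CPM to 426.1, 284.8, 218.1 and 85.9 CPM (-1.92, adjusted p = 0.000283), and Cdh5 and Kdr, a junction protein and a VEGF receptor, changed by -0.94 and -1.13 (adjusted p of 7.67e-05 and 0.000103). Plvap, a protein of leaky vessels, was the member that rose (2.75, adjusted p = 2.46e-05), while Nos3, Eng, Erg and Esam had intervals within the margin. Fibroblast markers fell in 14 of 19 cases (median -1.56). Gsn, gelsolin, changed by -2.76, Dcn, decorin, by -1.56 and Scara5, a ferritin receptor, by -3.77 (adjusted p of 3.66e-07, 3.15e-05 and 2.7e-05), and Meox1, a factor of activated fibroblasts, rose by 0.65 (adjusted p = 0.0255), a call lost without treated rat 2 or 4 or Sham rat 1 or 5 (adjusted p between 0.06 and 0.0759). Of 15 mural cell markers, 9 fell and 2 rose, and Rgs5 of pericytes had the largest change (-2.69, adjusted p = 7.76e-06). Mcam, with the highest CPM of that list, had a log2 fold change of 0.29 (adjusted p = 0.137), which among the alternatives run passed the test only with libraries scaled by total counts (0.60, adjusted p = 0.00885). The blood content of the samples was read from 10 red cell genes, of which none rose and 1 fell, beside 33.6 and 33.4% of all genes. Bpgm, a mutase of red cells, fell by 0.55 on the log2 scale (adjusted p = 0.0339), a call lost without treated rat 1 or 2 or Sham rat 1 or 2 (adjusted p between 0.0629 and 0.0792) and with total counts (adjusted p = 0.327). Hba-a1, a hemoglobin chain, was at 5490.5, 4410.9, 4414.1 and 4661.9 CPM in Sham and 5775.2, 3398.8, 8294.2 and 9416.5 CPM in treated rats, and the groups overlapped (0.50, adjusted p = 0.202). With total counts it was called higher (0.81, adjusted p = 0.0372). The red cell genes made up 0.886, 0.751, 0.635 and 0.671% of the counts in Sham and 1.17, 0.627, 1.68 and 1.71% in treated rats, so treated rat 2 lay below every Sham rat and the other 3 above. Of 6 atrial markers, 1 rose and 4 fell, beside 33.6 and 33.4% of all genes. Myl7, the atrial light chain, was at 18, 56.9, 5.16 and 0.59 CPM in Sham and 0.188, 2.3, 2.17 and 2.74 CPM in treated rats (-3.45, adjusted p = 0.0155), and its call was lost without Sham rat 2 (-2.10, adjusted p = 0.0906). Pam, a peptide-amidating enzyme with the highest CPM of these markers, changed by -1.92 (adjusted p = 1.08e-05). Of 7 mesothelial markers 2 fell, beside 33.4% of all genes, namely Wt1, a transcription factor, at -1.51 and Gpm6a at -2.82 (adjusted p of 8.51e-07 and 6.38e-05). Of 9 Schwann cell and neuron markers, 2 rose and 4 fell, beside 33.6 and 33.4% of all genes. Prph, a neuronal filament, changed by -0.70 (adjusted p = 0.0138, 0.0542 without treated rat 5 and 0.178 with total counts) and Uchl1, a neuronal hydrolase, by 3.22 (adjusted p = 1.75e-06). The only adipocyte marker with enough counts, Cidea, was lower (-3.03, adjusted p = 1.53e-05). The part of these shifts in cell type markers in the values of the programmes was not tested.

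Of 22 collagen chain genes, 14 fell and 3 rose (median -1.11, -0.82 in MI rats). With total counts the median was -0.80 and with 10 counts in every rat -0.88, below the size set for lists apart from Sham. Col3a1, a fibrillar chain, was at 5646.8, 5780.2, 4623.8 and 6148.4 CPM in Sham and 972.1, 1103.5, 1065.8 and 349.9 CPM in treated rats (-2.67, adjusted p = 3.69e-06), with treated rat 5 below the other 3. Col1a1 changed by -1.82 and Col4a3, of specialised basement membranes, by -3.89, whereas Col12a1, which binds fibrils, rose by 3.70 (adjusted p of 4.78e-05, 5.08e-06 and 1.25e-07). Of 18 matricellular genes, 10 rose and 6 fell, beside 33.6 and 33.4% of all genes. Spp1, osteopontin, on chromosome 14 from 6673686 to 6679901, went from 3.69, 6.14, 3.64 and 3.76 CPM to 8336.8, 2988.8, 3811.8 and 4345.1 CPM (10.14, standard error 0.39, adjusted p = 1.83e-08), from rank 9904 to rank 10 by RPKM among nuclear genes. Thbs1, thrombospondin-1, rose by 7.78, Tnc, tenascin-C, by 5.24 and Fn1, fibronectin, by 3.25 (adjusted p of 2.3e-08, 3.35e-08 and 7.24e-07), while Sparc, which binds collagen, changed by -1.44 (adjusted p = 1.77e-05). Among matrix proteases and their inhibitors 15 of 29 rose and 9 fell, beside 33.6 and 33.4% of all genes, and of the 23 with 10 or more counts in every rat 9 rose and 9 fell (median -0.25). Mmp9, a gelatinase of neutrophils, rose from 0.434, 0.341, 0.152 and 1.03 CPM to 443.0, 682.0, 956.0 and 1254.0 CPM (10.71, adjusted p = 9.64e-09), and Mmp2, the gelatinase of fibroblasts, changed by -1.06 (adjusted p = 0.000209). Timp1, an inhibitor of both, rose by 5.37 and Timp4, its cardiac relative, changed by -3.48 (adjusted p of 4.16e-09 and 0.000122).

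In the EGF family 8 of 11 rose (median 2.69, and 1.24 over the 4 with 10 or more counts in every rat). Hbegf, heparin-binding EGF, rose from 10, 5.6, 5.39 and 6.93 CPM to 46.4, 50.3, 40.8 and 51.1 CPM (2.75, adjusted p = 7.91e-08), and Ereg, epiregulin, was at 0 counts in Sham and at 2.44 to 7.67 CPM in treated rats, at least 23.0-fold higher. Erbb4, the neuregulin receptor of cardiomyocytes, was the member that fell (-3.57, adjusted p = 3.17e-05). In TGF-beta signalling 13 of 29 genes rose, 9 fell and 5 were at Sham level (median 0.11, beside 33.6, 33.4 and 16.2% of all genes). The ligands Tgfb1 and Inhba rose by 1.37 and 4.46, whereas Tgfb3 and Ltbp4, a latency protein, changed by -1.35 and -2.34 (adjusted p of 3.71e-06, 2.17e-07, 7.74e-07 and 3.57e-07). Smad2, a signal carrier of the pathway, and Smad7, its inhibitor, were at Sham level (intervals -0.02 to 0.46 and -0.23 to 0.39), with Smad2 called at 0.22 without MI rat 4 (adjusted p = 0.0469). With total counts Smad2 and Smad7 were called higher (0.54 and 0.38, adjusted p of 0.000585 and 0.0345). Cell cycle genes were higher in 17 of 27 cases and lower in none (median 0.89, 1.48 in MI rats), and without treated rat 2 or 5 or Sham rat 3 the median was 1.01 to 1.08, past the size set for lists apart from Sham. Rrm2, which supplies deoxynucleotides, rose by 2.48 (adjusted p = 3.37e-05), Mki67, a marker of cycling cells, had a log2 fold change of 0.51 (adjusted p = 0.0944) that passed the test without treated rat 2 or Sham rat 3 (0.66 and 0.67, adjusted p of 0.0369 and 0.0441), and Ccnd1, a G1 cyclin, one of -0.30 (adjusted p = 0.066) that passed the test without treated rat 2 or without Sham rat 1 (-0.39 in both, adjusted p of 0.0257 and 0.0256). Mki67 was also called with total counts (0.84, adjusted p = 0.0132).

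Clock genes were mostly lower. Of 17, 10 fell and 3 rose (median -1.41). Dbp, an output factor, went from 454.6, 365.6, 163.1 and 365.9 CPM to 21, 34.6, 30 and 31.3 CPM (-3.53, adjusted p = 4.82e-07), and Nr1d1, a repressor, changed by -2.92. The activator Arntl rose by 2.46 and Nfil3, which opposes Dbp, by 3.86 (adjusted p of 1.17e-06, 7.48e-06 and 5.65e-08). The labels give no hour of harvest.

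Among stress programmes of the cell the unfolded protein response rose in 24 of 28 genes and fell in 1 (median 1.63). Hspa5, the main chaperone of the endoplasmic reticulum, was at 369.7, 384.5, 373.2 and 412.3 CPM in Sham and 2063.6, 2823.6, 2915.4 and 3338.1 CPM in treated rats (2.86, adjusted p = 1.62e-07), and Trib3, a brake on the response, had the largest rise (5.37, adjusted p = 7.63e-07). Herpud1, which helps degrade misfolded proteins, was the member that fell (-0.75, adjusted p = 7.97e-05), and Eif2ak3, a sensor of the response, was at Sham level (interval -0.37 to 0.22). Among heat shock proteins 9 of 23 were higher and 11 lower (median 0.10), beside 33.6 and 33.4% of all genes. Hspa1b, the inducible chaperone, was at 0.59 to 1.16 CPM in Sham and 12.8 to 30.3 CPM in treated rats (4.55, adjusted p = 9.91e-06), and the small heat shock proteins of muscle Hspb6 and Hspb2 changed by -2.50 and -1.68 (adjusted p of 4.58e-05 and 3.32e-05). Cryab, the member with the highest CPM, changed by -0.71 (adjusted p = 0.0168), and its call was lost without treated rat 4 or 5 (adjusted p of 0.0525 and 0.0558) and with total counts (adjusted p = 0.157).

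Of 24 antioxidant and NRF2 target genes, 15 rose and 9 fell (median 1.57, 0.43 in MI rats), beside 33.6 and 33.4% of all genes. Slc7a11, which imports cystine for glutathione, rose from 0.289, 0.205, 0.152 and 0.0737 CPM to 54.4, 76.6, 95.7 and 87.4 CPM (8.70, adjusted p = 9.64e-09), Hmox1, heme oxygenase, rose by 5.25 and Sod2, the mitochondrial superoxide dismutase, by 2.47 (adjusted p of 5.85e-08 and 1.49e-06). Catalase (Cat), the mitochondrial peroxiredoxin Prdx3 and the secreted dismutase Sod3 changed by -1.64, -1.86 and -3.07 (adjusted p of 3.57e-06, 2.2e-07 and 2.9e-06). Among apoptosis regulators 14 of 25 rose, 5 fell and 4 were at Sham level, beside 33.6, 33.4 and 16.2% of all genes. Bcl2a1, a survival gene of leukocytes, rose most (5.20, adjusted p = 3.96e-08), Bax, which opens the mitochondrial outer membrane, rose by 1.45 and Fas, a death receptor, by 2.66 (adjusted p of 1.8e-05 and 9.28e-07). The members that fell included the mitochondrial proteins Cycs, Endog and Aifm1 (-2.27, -2.80 and -1.52), and Htra2, Xiap, Birc2 and Bad were at Sham level (interval of Htra2 -0.13 to 0.32). Pyroptosis and necroptosis genes rose in 9 of 18 cases and fell in 1, beside 33.6 and 33.4% of all genes. Nlrp3, the inflammasome sensor, rose by 5.28 and Nod2, a sensor of bacterial wall, by 6.05 (adjusted p of 1.83e-08 and 3.59e-08), Gsdmd, the pore former, was at Sham level (interval -0.13 to 0.51), and Txnip, with the highest CPM of the list, had a log2 fold change of 0.40 (adjusted p = 0.064) that passed the test without treated rat 1 or Sham rat 5 (0.47 and 0.50, adjusted p of 0.0393 and 0.0339). Txnip was also called with total counts (0.70, adjusted p = 0.00324) and with DESeq2 (0.42, adjusted p = 0.039). Of 19 p53 targets, 10 rose and 4 fell, beside 33.6 and 33.4% of all genes, with Cdkn1a, the cell cycle inhibitor p21, at 3.26, Gadd45b at 3.36 and Ccng1 at -1.93 (adjusted p of 2.38e-07, 9.03e-07 and 3.52e-06). Among autophagy genes 8 of 26 were higher, 10 lower and 7 at Sham level, beside 33.6, 33.4 and 16.2% of all genes. Pink1, which marks damaged mitochondria, changed by -2.70 and Atg7, an enzyme of autophagosome formation, by 2.00 (adjusted p of 1.23e-06 and 1.04e-06), and Becn1, which starts the process, had an interval of -0.24 to 0.23.

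Only the proteasome, which degrades tagged proteins, met the definition of Sham level as a list. Of 34 proteasome genes, 19 had an interval within 1.5-fold of Sham, beside 16.2% of all genes. In the same list 15 genes rose and 3 fell, with a median of 0.25 (0.32 in MI rats), so small rises were frequent. Psmd2, the regulatory subunit with the highest CPM of the list, was at 236.8, 240.3, 221.8 and 266.1 CPM in Sham and 298.6, 268.7, 277.0 and 289.4 CPM in treated rats (0.23, interval 0.02 to 0.45, adjusted p = 0.0541). All treated rats lay above all Sham rats by a small margin, and the difference passed the test in 7 of the alternatives run, among them DESeq2 (adjusted p = 0.0085), limma-voom (0.0404) and leaving out Sham rat 5 or MI rat 4 (0.0373 and 0.0445). Psma1 and Psma4, of the core ring, had intervals of -0.19 to 0.32 and -0.21 to 0.33. Psmd8, of the lid, had the largest change (0.88, adjusted p = 1.47e-05). Without treated rat 2 or 5 the number within the margin was 16, and with total counts in place of TMM it was 7, so the list met the definition of Sham level narrowly.

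Of 34 genes of RNA polymerase II and Mediator, 14 were at Sham level, 9 rose and 6 fell (median 0.09), beside 16.2, 33.6 and 33.4% of all genes. Polr2a, the catalytic subunit, was at 110.1, 110.4, 111.1 and 117.0 CPM in Sham and 109.1, 136.6, 119.1 and 164.0 CPM in treated rats (0.24, adjusted p = 0.324), and Sham rat 5 stood apart from the other Sham rats. Polr2b, the other large subunit, had an interval of -0.09 to 0.32, Med12 one of -0.49 to 0.58 and Med24 one of -0.22 to 0.23. Med15, a target of activators, had the largest change (1.15, adjusted p = 1.18e-05). Without MI rat 4, which shares the estimate of spread, 18 members were within the margin. Vesicle coat genes were at Sham level in 8 of 25 cases, with 13 higher and 3 lower (median 0.39), beside the same shares of all genes. Tmed2, a cargo receptor, rose by 0.62 and Sec23b, a coat subunit for export from the endoplasmic reticulum, by 1.74 (adjusted p of 0.000152 and 2.63e-08), while its paralog Sec23a was at Sham level (interval -0.29 to 0.20).

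Genes that serve protein synthesis mostly rose. Cytosolic ribosomal protein genes rose in 27 of 46 cases and fell in 1, with 7 at Sham level (median 0.43, 0.50 in MI rats). Rplp0, of the stalk, was at 1483.3, 1682.2, 1382.3 and 1352.8 CPM in Sham and 2150.2, 1864.2, 1872.9 and 1854.7 CPM in treated rats (0.39, adjusted p = 0.0205), and the call was lost without treated rat 1 or Sham rat 3 or 5 (adjusted p of 0.0512, 0.0568 and 0.0608). Rplp2, the one that fell (-2.52, adjusted p = 0.0182), had Sham values of 26.3, 6.14, 21.9 and 116.5 CPM and was not called without Sham rat 5 (-1.28, adjusted p = 0.13). Reads of ribosomal protein genes can be shared with processed copies, so these values are less certain. Ribosome biogenesis rose in 24 of 25 genes (median 1.27), with Ncl, nucleolin, at 1.35 and Heatr1 at 2.19 (adjusted p of 5.46e-07 and 1.31e-05), and Polr1a, the large subunit of RNA polymerase I, was at Sham level (interval -0.52 to 0.22). Of 20 tRNA synthetases, 16 rose, 1 fell and 5 were within the margin (median 0.64). Cars, for cysteine, had the largest change (1.49, adjusted p = 4.97e-07), Eprs, for glutamate and proline, had the highest CPM (0.56, adjusted p = 0.00076), and Iars and Kars, for isoleucine and lysine, lay at Sham level (intervals -0.24 to 0.36 and -0.29 to 0.13). Spliceosome genes rose in 25 of 35 cases (median 0.50), with 10 within the margin. Snrpd1, a core ring protein, rose by 1.71 and Sf3b1, of the branch site complex, by 0.70 (adjusted p of 3.68e-06 and 6.17e-05), and Prpf8, the core of the catalytic site, was at Sham level (interval -0.28 to 0.57). Nuclear pore genes rose in 22 of 25 cases (median 0.81), with the scaffold gene Nup205 at 1.51 and Ranbp2, of the cytoplasmic filaments, at 0.81 (adjusted p of 1.05e-06 and 6.41e-05).

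Among lists of organelles the vacuolar ATPase, which acidifies lysosomes, rose in 13 of 15 genes, close to the size set for lists apart from Sham (median 0.98, 0.55 in MI rats), which the list reached in 7 of the alternatives run, with a median of 1.0 to 1.29, among them leaving out treated rat 1 or Sham rat 5. Atp6v0c, its proton ring, was at 315.6, 311.4, 298.2 and 335.2 CPM in Sham and 706.9, 695.5, 728.5 and 947.0 CPM in treated rats, with treated rat 5 above the other 3, and Atp6ap2, an assembly factor, rose most (2.28, adjusted p = 1.12e-06). Peroxisome biogenesis had 3 genes higher, 5 lower and 5 at Sham level of 14, beside 33.6, 33.4 and 16.2% of all genes. Pex19, which inserts membrane proteins, changed by -1.16 and Pex2, of the import machinery, by -0.48 (adjusted p of 0.000362 and 0.00293, the latter 0.202 with total counts), and Pex14, of the import pore, was within the margin (interval -0.39 to 0.21). Of 23 intraflagellar transport genes, 3 rose, 10 fell and 4 were within the margin, beside 33.6, 33.4 and 16.2% of all genes. Ift81, which carries tubulin in cilia, changed by -1.98 (adjusted p = 1.45e-05), and Ift88 and Ift52 lay at Sham level (intervals -0.51 to 0.40 and -0.01 to 0.40).

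The 6 genes with the narrowest intervals around Sham level are given next. Nmt1, which attaches myristate to proteins, was at 102.8, 100.9, 108.2 and 106.4 CPM in Sham and 108.3, 105.6, 101.3 and 104.0 CPM in treated rats, an interval of -0.17 to 0.18 on the log2 scale. The values of the groups were mixed. Wdr26, a subunit of a ubiquitin ligase, was at 166.7, 172.6, 188.2 and 182.7 CPM and 172.1, 186.6, 171.1 and 178.5 CPM (interval -0.19 to 0.18), Dctn5, of dynactin, at 37.2 to 40.2 CPM and 35.5 to 40.6 CPM (interval -0.18 to 0.20), and Fxr2, an RNA-binding protein, at 77.6 to 87.3 CPM and 78.3 to 85.9 CPM (interval -0.20 to 0.15). Abhd17a, which removes palmitate, and Pqlc1 had intervals of -0.19 to 0.17 and -0.21 to 0.18. These intervals hold for TMM. With libraries scaled by total counts the 6 genes were called higher, by 0.28 to 0.32, as the median of all genes moved to 0.32.

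**Figure D4:**
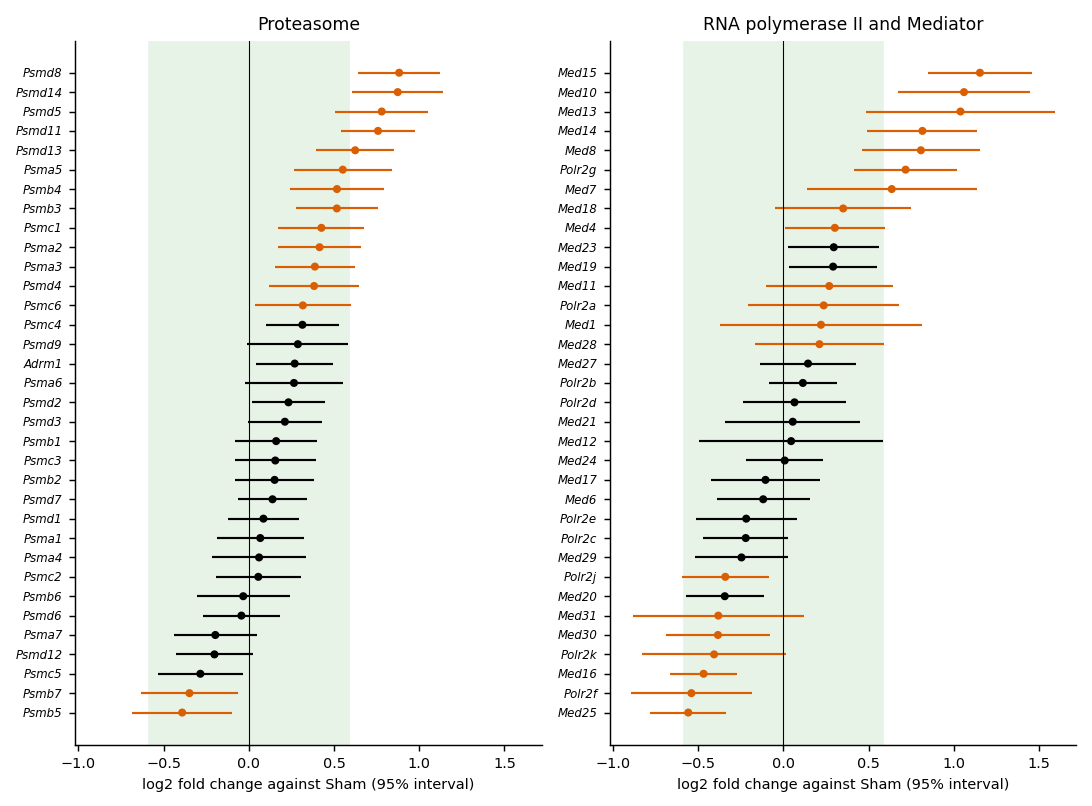
Log2 fold change with its 95% interval, iCarP+/Light+ against Sham, for the members of the proteasome and of RNA polymerase II and Mediator, with a shaded band from 1.5-fold lower to 1.5-fold higher. In the proteasome 19 of 34 intervals stay inside the band (black) and 15 do not (orange), and in RNA polymerase II and Mediator 14 of 34 stay inside.

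Genes that lay at Sham level after treatment while they differed in MI rats, and the reverse, are given as values, since both comparisons use the same Sham rats. Of the genes called in MI rats, 657 were within 1.5-fold of Sham in treated rats, and only 12 of these differed by 2-fold or more in MI. Aldoa was at 2775.4, 2779.3, 2650.0 and 3154.1 CPM in Sham and 1924.0, 2869.0, 2539.7 and 3170.4 CPM in treated rats (interval -0.50 to 0.28), and at 1296.4 ± 270.8 CPM (SD, n = 4) in MI rats, a log2 fold change of -1.13 (adjusted p = 0.6 in treated and 0.00013 in MI rats). Alas1, which starts heme synthesis, had a mean of 309.3 ± 49.1 CPM (SD, n = 4) in Sham rats. It was 312.5 ± 50.9 CPM (SD, n = 4) in treated rats and 107.2 ± 4.94 CPM (SD, n = 4) in MI rats, a change of -1.53 in the latter. The remaining 6 of the 8 with the largest changes were Klc4, Pnpla8, Ccng2, Cpxm1, Nudt4 and Mllt6, with log2 fold changes in MI rats of -1.51, -1.31, -1.28, -1.24, -1.21 and -1.16. Klc4 is a kinesin light chain, Pnpla8 a mitochondrial phospholipase and Ccng2 an atypical cyclin.

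In the other direction, 783 genes were called in treated rats and within 1.5-fold in MI rats, and all 47 that differed by 2-fold or more were higher. Irak3, a brake on Toll-like receptor signals in monocytes, was at 15.5, 13, 15.7 and 14.7 CPM in Sham and 52.8, 116.9, 119.7 and 127.9 CPM in treated rats (2.82, adjusted p = 3.26e-07), and at 15.5 ± 1.5 CPM (SD, n = 4) in MI rats (0.08). Treated rat 1 was below the other 3 treated rats. Gadd45a, a stress gene, went from 55.7, 47.5, 52.5 and 55.3 CPM to 124.9, 213.1, 251.1 and 247.1 CPM (1.99, adjusted p = 2.02e-06), with 49.7 ± 8.77 CPM (SD, n = 4) in MI rats. Plscr1, a scramblase of membrane lipids, changed by 2.68 and Kdm6b, a histone demethylase of activated macrophages, by 2.50, against 0.19 and -0.01 in MI rats (adjusted p in treated rats of 2.72e-08 and 4.15e-06). Dennd3, Ddhd1, Antxr2 and Alpk1 changed by 1.95, 1.83, 1.83 and 1.78 in treated rats. A further 1499 genes lay within the margin in both.

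**Figure D5:**
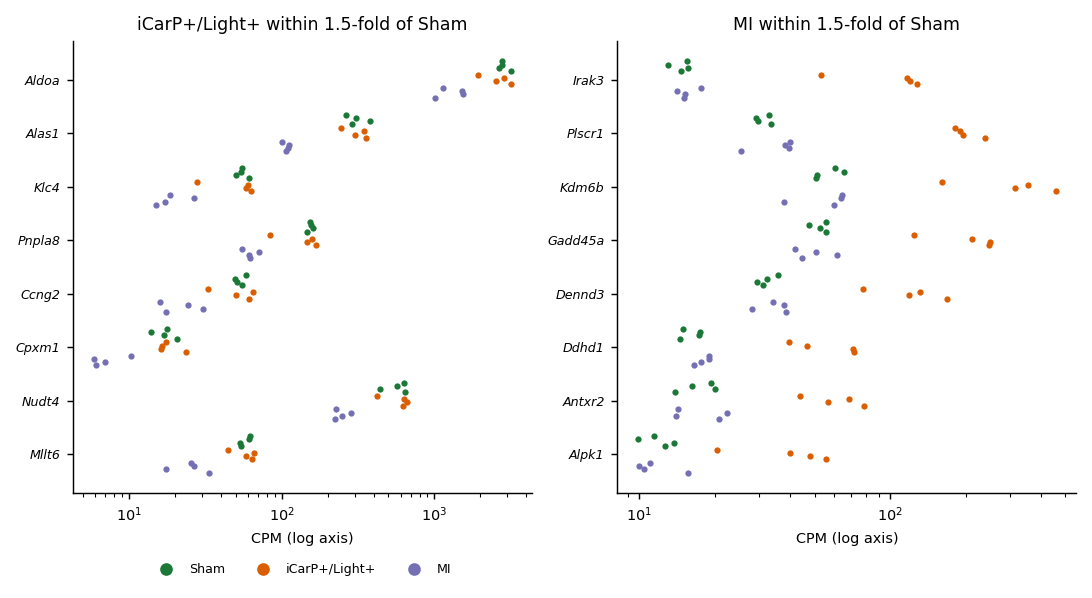
CPM per rat in Sham, iCarP+/Light+ and MI rats for the 8 genes that differed most in MI rats and lay within 1.5-fold of Sham in iCarP+/Light+ rats, and for the 8 with the reverse pattern. Aldoa in iCarP+/Light+ rats lies on both sides of the Sham values, and Irak3 and Gadd45a in iCarP+/Light+ rats sit above both other groups.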

How the data were processed

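RNA was sequenced from the LV of 12 rats, 4 each labelled Sham, MI and iCarP+/Light+. The authors deposited 1 table of raw read counts per gene; the submitters' processing notes name HISAT2, featureCounts and the build rn6, on which gene positions are given as the table lists them. The annotation release and the strand setting are not given in the sources used here, so reads of overlapping or antisense genes cannot be told apart. Totals were 14064414 to 17136958 counts in the 8 rats compared, and counting intervals and floors (3 counts) cover counting error only.

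Counts of all 12 rats entered 1 fit in edgeR 4.0.16 (R 4.3.3), with filterByExpr (minimum count 10), TMM and the quasi-likelihood test, Benjamini-Hochberg adjustment over all tested genes and a threshold of 0.05. The standard error of a log2 fold change was taken from the fitted coefficient, and the margin for Sham level was 1.5-fold. Replicate numbers came from the labels. Each rat is 1 sample, and no 2 libraries of a compared group agreed within counting noise (chi-square per gene of 14.1 to 114). The scripts were tested on simulated data with known changes. Alternatives used limma 3.58.1 and DESeq2 1.42.0, and figures were drawn with matplotlib 3.10.9 in Python 3.11.15.

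Genes were named by rule: the 10 highest and 10 lowest log2 fold changes among called genes of at least 5 CPM without overlap, the highest-CPM and the most changed member of each list (at least 1 CPM, and a few that the rule chose are not reported here), 8 genes in each direction that lay at Sham level in 1 infarct group and not in the other, and the 6 narrowest intervals. Other genes named, such as members that went against their list, members at Sham level and further examples, were chosen after their values were seen. The members of the comparison and the lists were chosen with earlier results of these data known. Promoters came from RefSeq (assembly GRCr8), which matched 10525 of the 13660 tested genes (77.0%) by symbol.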

Additional observations from a re-analysis of the deposited data

Results flagged for a closer look

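Among 300 named genes, single rats were looked for whose gap to the nearest of the other 3 rats of their group took up more than Dixon's 95% share of the group's range. Chance gives such a gap in about 1 in 20 groups, or about 30 of the 600 groups checked. It was found 34 times, close to that number, 19 in Sham and 15 in iCarP+/Light+ rats, 10 of them in iCarP+/Light+ rat 1.

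In iCarP+/Light+ rat 1 the values were low for Irak3 (52.8 CPM, others 116.9 to 127.9), Irf1 (48.6, others 73.2 to 77.8), Klc4 (27.8, others 58.1 to 63.1), Nudt4 (421.8, others 618.3 to 664.9), Meox1 (6.64, others 9.42 to 9.89) and Myl7 (0.188, others 2.17 to 2.74). They were high for Sirpd (79.6 CPM, others 4.35 to 7.24), Cd3e (3.26, others 1.48 to 1.63), Rplp0 (2150.2, others 1854.7 to 1872.9) and Wt1 (15.3, others 12.4 to 12.5). In iCarP+/Light+ rat 5 Col3a1 (349.9 CPM, others 972.1 to 1103.5) and Ift81 (3.87, others 9.14 to 10.5) were low, and Atp6v0c (947.0, others 695.5 to 728.5) and Eprs (233.4, others 194.2 to 199.7) were high. In iCarP+/Light+ rat 2 Psmd8 was high (137.5 CPM, others 125.5 to 127.2).

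Sham rat 2 was low for the interferon-stimulated genes Mx2 (71.4 CPM, others 566.1 to 830.0), Oas1a (17.1, others 91.4 to 112.5) and Ifit3 (21.1, others 227.4 to 333.8), and for Eif2ak3 (20.1, others 25 to 25.9), and high for Spp1 (6.14, others 3.64 to 3.76). Sham rat 3 was high for the mitochondrial genes Echs1 (75.8 CPM, others 2.05 to 3.17) and Ndufa1 (30.4, others 0.59 to 1.16) and low for Adh1 (7.59, others 20 to 24) and Herpud1 (187.6, others 207.7 to 211.5). Sham rat 5 was high for Actn2 (2062.1 CPM, others 1783.4 to 1827.1), Des (2355.1, others 1967.1 to 1990.2), Ky (74.4, others 52.8 to 55.5), Scn4b (195.3, others 125.1 to 133.2) and Polr2a (117.0, others 110.1 to 111.1), and low for Myl2 (91.2, others 247.7 to 299.6) and Prpf8 (170.1, others 189.8 to 191.8). In Sham rat 1 C3 (2.6 CPM, others 7.37 to 8.85) and Il7r (0.217, others 0.531 to 0.59) were low, and Il6 was at 0.289 CPM with the others at 0.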

How the results depend on the processing

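Leaving out each rat in turn gave 4290 to 4741 genes higher, 4179 to 4723 lower and 1837 to 2450 within 1.5-fold of Sham, with 31 to 33 lists apart from Sham, 26 to 28 in between and 0 to 2 at Sham level. With a change of 2-fold or more required as well, 2508 genes were higher and 2830 lower, and 5345 had an interval within 2-fold. The number of lists at Sham level was 0 with total counts in place of TMM and 2 when only the 8 rats compared were fitted. DESeq2 size factors gave 4686 genes higher and 4497 lower, DESeq2 4772 and 4571, and limma-voom 4497 and 4544. Of 300 named genes, 250 kept direction and call in all alternatives run. Leaving out 1 rat moved the log2 fold change of 25 called genes by more than 1.5-fold, and brought Echs1, AABR07046778.1, Myl7, Ndufa1, Rplp2, Sirpd and Stfa2l1 nearer to 0 (values above). The others lay further from 0: without treated rat 2 Asb10 (-5.79), Col4a3 (-4.55), Corin (-3.66), Ky (-5.82), Mx2 (-5.32), Oas1a (-2.68) and Scara5 (-4.65), without treated rat 1 Il34 (-2.64), Timp4 (-4.37) and again Ndufa1 (-5.33), without Sham rat 1 Fos (3.93), without Sham rat 2 Angptl4 (6.87), and without Sham rat 5 Clec4e (11.80), Mmp9 (11.35) and Slc2a3 (6.35). For 4 of the 25 the rats left held 0 or 1 Sham count, so that Il6 was at least 469.3-fold higher without Sham rat 1, and the ratios were 73752.8 for Cxcl3 without Sham rat 1 (counting interval 13237.2 to 2913079.9), and without Sham rat 5 1537.9 for Cxcl6 (276.0 to 60744.6) and 126.5 for Vsig4 (22.7 to 4996.4). With total counts Abhd17a (0.30), Becn1 (0.31), Fxr2 (0.28), Pqlc1 (0.30) and Wdr26 (0.31) turned from at or below 0 to called higher, as the median of all genes moved to 0.32. A minimum of 10 counts in every rat left 16 chemokine and 10 cytokine genes, with medians of 0.86 and 0.88, and brought collagen chains to -0.88, which took these lists out of those apart from Sham. In all, 14 lists changed state under some alternative, and the median of 6 lists in between turned sign: antigen presentation, autophagy, heat shock proteins, intraflagellar transport, matrix proteases and peroxisomes. Same-numbered rats of different groups are different animals and were not paired. Deviations of same-numbered treated and Sham rats correlated at -0.028, -0.15 and 0.01, and so few pairs cannot show whether they shared a batch. With the replicate block 4193 genes were higher, 4161 lower and 1880 within 1.5-fold, 31 lists were apart from Sham, 28 in between and 1 at Sham level, and 10 interferon-stimulated genes fell. Genes for which neither a difference nor Sham level was called had a median of 4.44 CPM, and the part of depth was not tested.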
